A study of Drosophila melanogaster with 8 samples.

Results

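The genes of the Decapentaplegic (Dpp) pathway examined here were dpp, tkv, sax, put, Mad, Med, brk, bi, salm and Dad. These 10 genes were chosen by name for their place in the pathway, with earlier results of these data known. Each gene was taken as its Release 6 span with 2 kb on each side. All 10 were found in the RefSeq gene table of that assembly, and 27 of the 9086 merged peak regions of the series lay at them. The peaks come from CUT&RUN on the wing discs of Drosophila melanogaster larvae, the epithelial precursors of the adult wing. In this assay an antibody brings a nuclease to chromatin, and the fragments it releases are sequenced. The antibody was rabbit anti-GFP in every library. Tagged larvae (Zelda-GFP) carried GFP on the endogenous transcription factor Zelda, and control larvae were w1118 without any GFP (WT). Discs of each genotype came from normally developing larvae (undamaged) or from larvae 2 days after damage (damaged), with 2 libraries in each of the 4 groups. The way the damage was made, the larval age, the number of discs pooled and any further transgene are not given in the sources used here. Nothing in the labels says that replicates came from separate cohorts, so their spread may be technical. Peak lists hold no expression values, so the labelled tissue could not be checked against marker genes.

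Dpp is a secreted ligand of the bone morphogenetic protein family. In the growing wing disc it is made in a stripe along the boundary between the anterior and posterior compartments and acts at a distance as a morphogen. Receptor complexes of Tkv or Sax with Put phosphorylate Mad, which enters the nucleus with Med and, together with the cofactor Shn, represses brk. Brk is itself a repressor of Dpp targets, so bi (also called optomotor-blind) and salm (spalt major) are transcribed where Brk is low. Dad, an inhibitory Smad, is activated by the pathway and dampens it. Zelda is known as a pioneer factor that opens chromatin in the early embryo.

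A region here is a stretch where peaks of the 8 lists share at least 1 bp, and it counts as called in a library if that library's list has a peak in it. Peak lists on the 6 chromosome arms held 1698 to 3908 peaks. Background coverage, recovered from the deposited fold and p-value of each peak and used in place of depth, lay between 32.6 and 52.3 fragments per base. Both Zelda-GFP damaged libraries had 38.0, below the 52.3 and 46.1 of the WT damaged ones. Fold enrichment below is the authors' linear ratio of the pileup at a peak's summit to the caller's expected coverage. It was given only for called peaks and ranks peaks within a list.

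At the Dpp genes, most calls came from the damaged Zelda-GFP discs. Replicate 1 of that group called 16 of the 27 regions (59.3%), where it called 37.0% of all regions in the series. Replicate 2 called 18 (66.7%), against 39.2% of all regions. Undamaged Zelda-GFP discs called 1 region in replicate 1 (3.70%), against 29.3% of all regions, and 0 in replicate 2, against 15.8%. WT undamaged replicates called 0 and 3 regions, against 16.5% and 33.1% of all regions. WT damaged replicate 1 called 0, against 22.8%, and replicate 2 called 9 (33.3%), against 37.9%. The counts of both damaged Zelda-GFP libraries thus lay above those of all 6 other libraries. Set in order of background coverage, the libraries at 32.6 and 35.3 fragments per base both called 0 of the 27, those at 40.4 and 46.1 called 3 and 9, and those at 51.8 and 52.3 called 1 and 0, while both damaged Zelda-GFP libraries stood at 38.0.

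**Figure D1:**
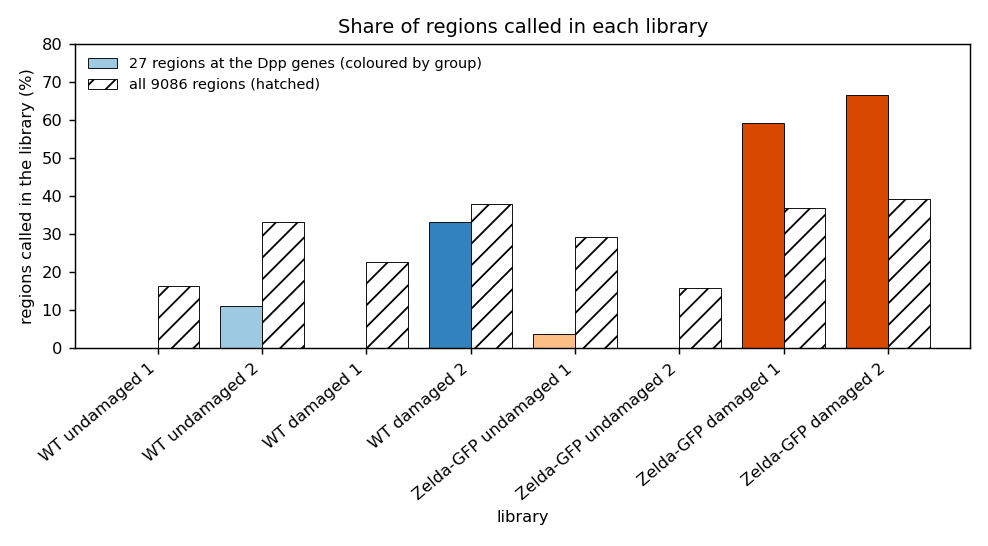
Bars give the percentage of regions called in each library (y axis) for the 27 regions at the Dpp genes (solid, coloured by group) and for all 9086 regions (hatched). The 2 Zelda-GFP damaged libraries, at 59.3% and 66.7%, are the ones whose solid bar stands above the hatched bar.

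Regions called in both replicates of damaged Zelda-GFP discs but in neither damaged control numbered 12 of the 27 (44.4%), against 13.4% of all regions. All 12 were also free of any call in the undamaged libraries, a class that held 10.6% of all regions. The 12 lay at 7 of the 10 genes: 4 at Dad, 3 at tkv and 1 each at dpp, Med, brk, bi and salm. Across the genome 9.79% of protein-coding genes had such a region. Long genes have more room for one, and among genes with a span of at least 10 kb the share was 24.9%, against 5 of the 6 members of that length. Among shorter genes it was 7.29%, against 2 of the 4 members (Med and brk). The corresponding undamaged class, in both undamaged Zelda-GFP lists and not in the undamaged controls, held 0 of the 27 regions, against 3.02% of all, and its subset without a call in any other list also held 0, against 0.616%. Classes specific to the controls also held 0 of 27, against 3.04% of all regions for damaged and 1.96% for undamaged WT discs. None of the 27 was called in all 8 libraries, as 6.45% of all regions were.

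**Figure D2:**
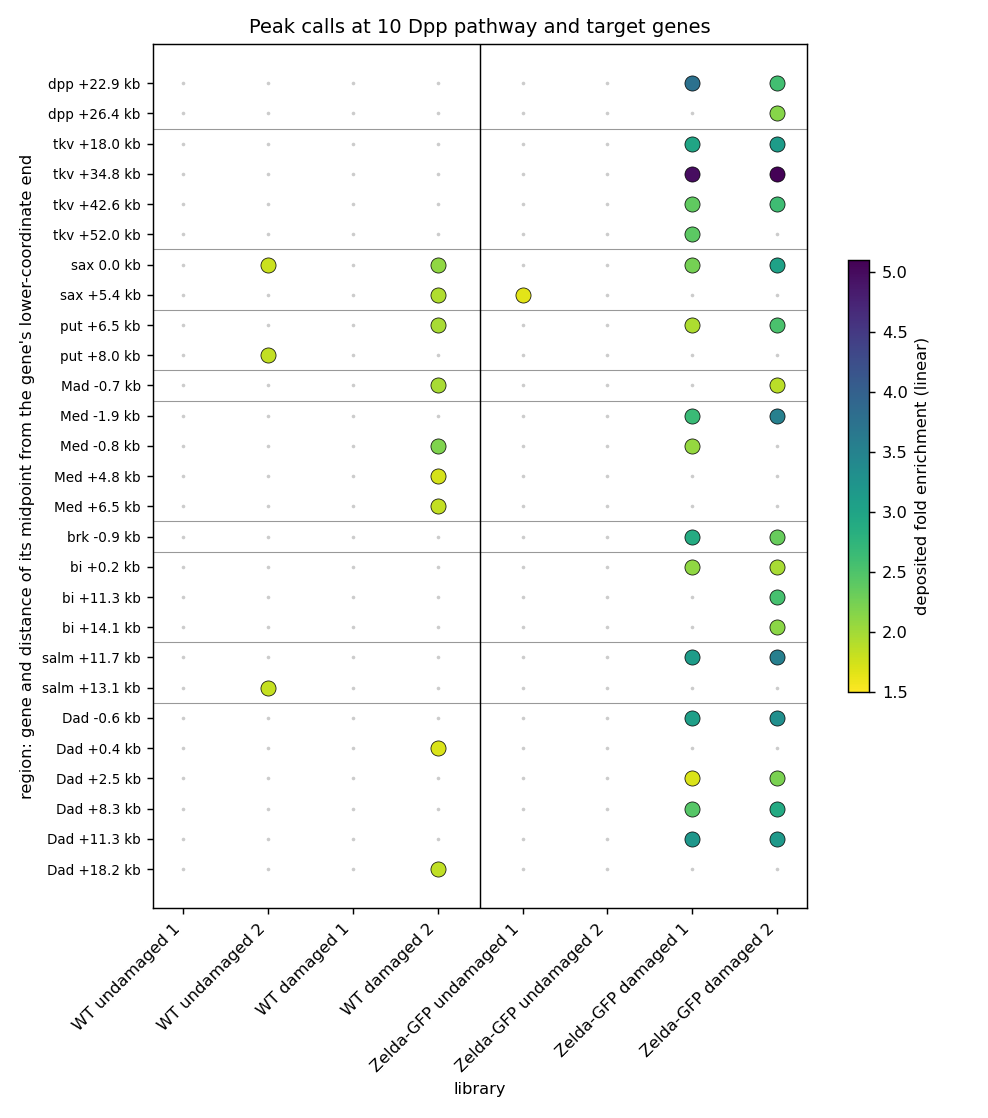
Each row is 1 of the 27 regions, labelled by gene and by the distance of its midpoint from the gene's lower-coordinate end in kb, and each column is a library. Circles mark called peaks, coloured by deposited fold enrichment, and small dots mark no call. The 12 regions with circles in the last 2 columns alone include those of dpp, tkv and Dad, whereas at sax, put and Mad the rows with Zelda-GFP damaged circles also have a WT circle.

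No single region passed the test over all regions. The exact two-sided permutation test of 4 Zelda-GFP against 4 WT libraries has a smallest p of 0.0286, and after Benjamini-Hochberg adjustment over 9086 regions 0 regions of the series passed 0.05 (0% called). At an unadjusted p under 0.05 there were 108 regions (1.19%), of which 0 were at the Dpp genes. The test of 4 damaged against 4 undamaged libraries likewise left 0 after adjustment (0%) and 34 before it (0.374%), with 0 at the Dpp genes. These zeros carry no information, since 25 of the 27 regions were called in at most 2 libraries, and a region called in 2 cannot go below an exact p of 0.429 in either test. A comparison of 2 against 2 libraries cannot go below an exact two-sided p of 0.333. The counts at these genes are therefore descriptions, to be read against the shares over all regions.

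The ligand gene dpp spans 2L 2428372 to 2459823 (31.5 kb) and had 2 regions, both within the gene. The region at 2L 2450889 to 2451622 had folds of 3.76 and 2.60 in the 2 damaged Zelda-GFP lists, with pileups of 147 and 104 fragments. Its summits lay 31 bp apart, about 22.6 kb from the lower-coordinate end of the gene. Replicate 1 ranked it higher within its list (percentile 93.5) than replicate 2 did (percentile 74.2). A second region, at 2L 2454637 to 2454872, was called in replicate 2 alone with a fold of 2.16. No WT or undamaged list had a peak at dpp.

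Among the receptors, tkv carried the peak with the highest folds of the set. This type I receptor gene spans 2L 5219000 to 5271384 (52.4 kb) and had 4 regions, each inside the gene and each without a WT or undamaged call. At 2L 5252725 to 5254784 the folds were 4.98 and 5.07 (mean 5.03 ± 0.0653, SD, n = 2), with pileups of 475 and 439 fragments, 12.5 and 11.5 times the background coverage. The summits of the replicates lay 4 bp apart, and the region ranked 31 of the 1222 regions of its class by mean fold. The region at 2L 5236444 to 5237547 had folds of 2.98 and 3.12 with summits 13 bp apart. The third, at 2L 5261241 to 5261959, had folds of 2.38 and 2.61 with summits 72 bp apart. The fourth, near the upper end of the gene at 2L 5270553 to 5271347, was called in replicate 1 alone with a fold of 2.41. Replicates thus gave near-equal folds at the 3 shared tkv regions.

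The other receptor genes showed calls shared with the control. The gene sax, another type I receptor, spans 2R 7806484 to 7810067. Its main region, 2R 7806002 to 7806930, covers the lower end of sax and also overlaps Nop17l. It was called in both damaged Zelda-GFP lists with folds of 2.26 and 3.04, in WT damaged replicate 2 with 2.10 and in WT undamaged replicate 2 with 1.79. Relative to the lower end of sax, the Zelda-GFP summits lay at 123 and 135 bp, and the WT summits at -316 bp in the damaged and -254 bp in the undamaged library. With peaks reduced to 100 bp around their summits, the Zelda-GFP peaks at sax became a region of their own. The other region at sax, 1480 bp beyond its upper end in TTLL12, was called in WT damaged replicate 2 and, as the single undamaged Zelda-GFP call at any of the 10 genes, in replicate 1 of that group with a fold of 1.67.

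The type II receptor gene put spans 3R 14619030 to 14625703. The region 3R 14625218 to 14625922 lies across its upper end and the adjoining His4r. Folds there were 1.95 and 2.53 in damaged Zelda-GFP discs and 1.97 in WT damaged replicate 2. Relative to the upper end of put, these summits lay at -159, -140 and -138 bp. A second region in CG7886 was called in WT undamaged replicate 2 alone.

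The 2 Smad genes had little signal of their own. Mad, the receptor-activated Smad, spans 2L 3146056 to 3159643 and had 1 region, 375 bp below it in ND-B14.5B, called in WT damaged replicate 2 (fold 1.98) and in Zelda-GFP damaged replicate 2 (fold 1.87). No peak of any list lay inside Mad. Med, the common-mediator Smad, spans 3R 31611046 to 31615375 and had 4 regions, all outside its span. The region 3R 31608746 to 31609524, in the neighbouring gene CycG and 1521 bp below Med, had folds of 2.67 and 3.55 in damaged Zelda-GFP discs and no other call. Relative to the lower end of Med its summits lay at -2177 and -2141 bp, outside the 2 kb flank. The replicate 2 peak reached into the flank only by its edge, at -1.983 kb. The remaining 3 each had a WT damaged replicate 2 call, with folds of 1.73 to 2.19, and 1 of them was shared with Zelda-GFP damaged replicate 1. Without flanks Med had no region at all.

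At brk, which encodes the repressor that Dpp signalling turns off, a broad region adjoined the gene. It lay at X 7306270 to 7307882, ended 56 bp below the brk span (X 7307939 to 7311132) and overlapped CG1677 and the noncoding RNA gene lncRNA:CR44357. Folds at the highest summit were 2.89 and 2.33 in the damaged Zelda-GFP lists, with pileups of 202 and 182 fragments. Relative to the lower end of brk these summits lay at -1526 and -1538 bp, 12 bp from each other. No WT or undamaged list had a peak there.

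The 3 target genes each had a region found in damaged Zelda-GFP discs alone. The T-box gene bi spans X 4412856 to 4485647 (72.8 kb), and its shared region, X 4412860 to 4413232, lay at the lower end of the gene with folds of 2.10 and 1.97. Another 2 regions, about 11.3 and 14.1 kb into bi, were called in replicate 2 alone with folds of 2.56 and 2.13. The noncoding RNA gene lncRNA:CR32773 overlaps all 3. The zinc-finger gene salm spans 2L 11434311 to 11445614, and the region 2L 11445768 to 11446337 lay 153 bp beyond its upper end, in no annotated gene, with folds of 3.13 and 3.56. A WT undamaged replicate 2 peak with a fold of 1.81 lay farther out, 1644 bp from salm.

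Dad spans 3R 17054007 to 17070408 (16.4 kb) and had the most regions of the 10 genes, 6 in all. The region 3R 17052899 to 17053973 ended 33 bp below the gene and had folds of 3.09 and 3.33. Within the gene, 3R 17065012 to 17065566 had folds of 3.19 and 3.16 (mean 3.18 ± 0.0209, SD, n = 2), and 3R 17061746 to 17062860 had 2.44 and 2.91. The weakest of the 12 shared regions, 3R 17056280 to 17056713, had folds of 1.70 and 2.22, and its summits lay 214 bp apart. WT damaged replicate 2 had 2 peaks at Dad, with folds of 1.70 and 1.85, neither of them overlapping a Zelda-GFP peak.

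**Figure D3:**
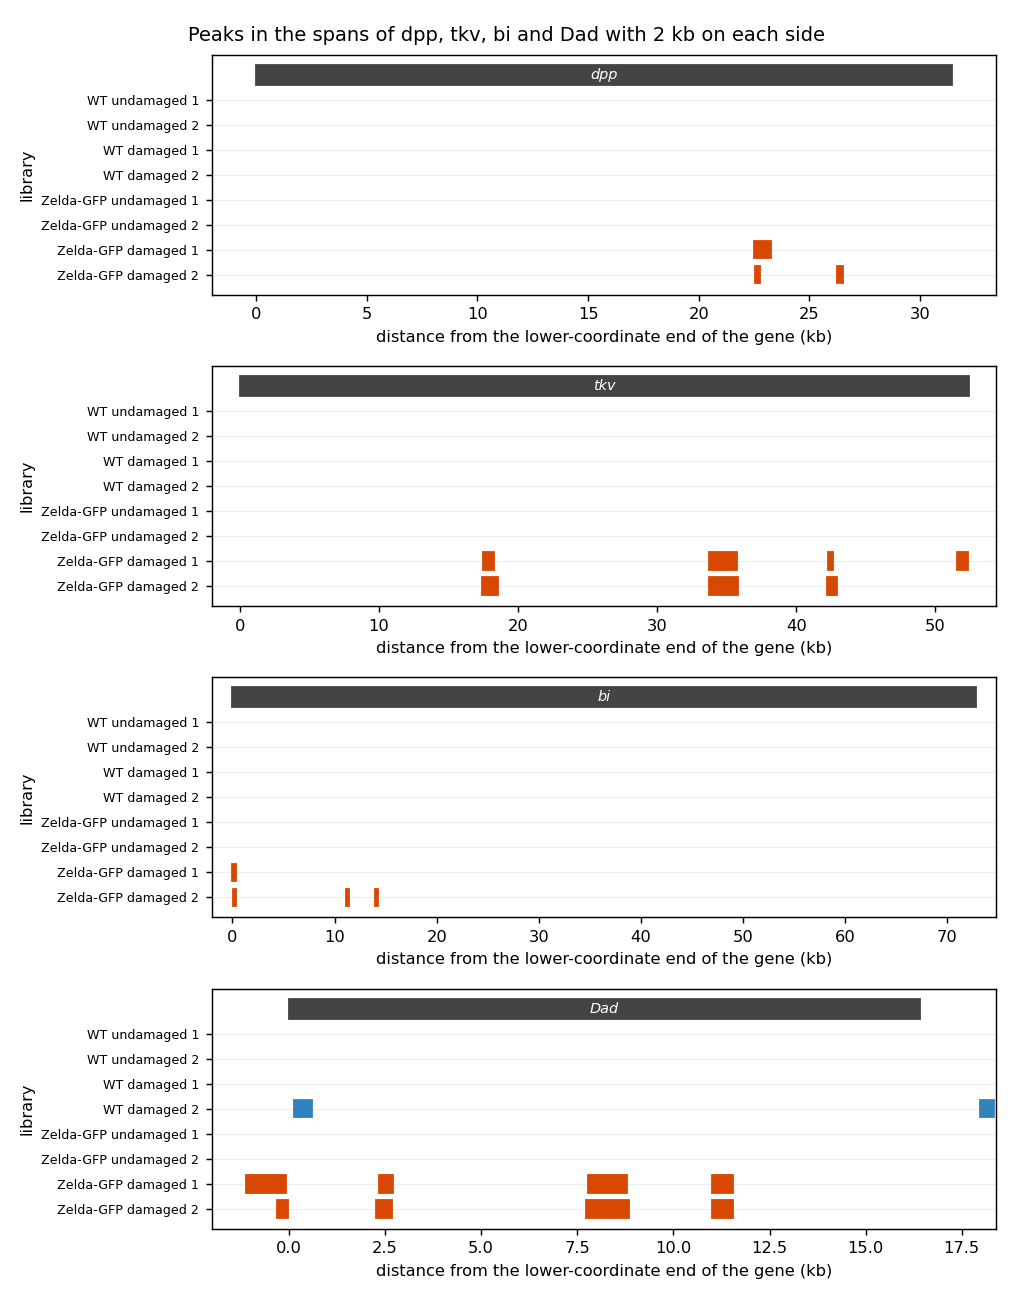
Peaks of the 8 lists (rows) are drawn as blocks, to scale, along dpp, tkv, bi and Dad with 2 kb on each side. The x axis is the distance from the gene's lower-coordinate end in kb, the dark bar is the gene span, blue blocks are WT peaks and orange blocks Zelda-GFP peaks. At tkv 3 regions line up in both damaged Zelda-GFP lists, and at Dad 4 do.

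Among themselves, the 12 shared regions had folds of 1.70 to 5.07, and 4 of them reached a fold of 3 in both lists (33.3%), against 17.4% of all 1222 regions of the class. Median folds were 2.94 and 3.01 in replicates 1 and 2, against 2.38 and 2.50 over the class. The median within-list percentile was 84.0 in both replicates, against 66.9 and 70.4. Replicate summits lay within 100 bp of each other at 11 of the 12 (91.7%), against 62.5% of the class. Pileups ran from 73 to 475 fragments. The ratio of replicate 2 to replicate 1 folds ran from 0.691 at dpp to 1.33 at Med. The SD of the 2 folds ran from 0.0209 at a Dad region to 0.821 at dpp.

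**Figure D4:**
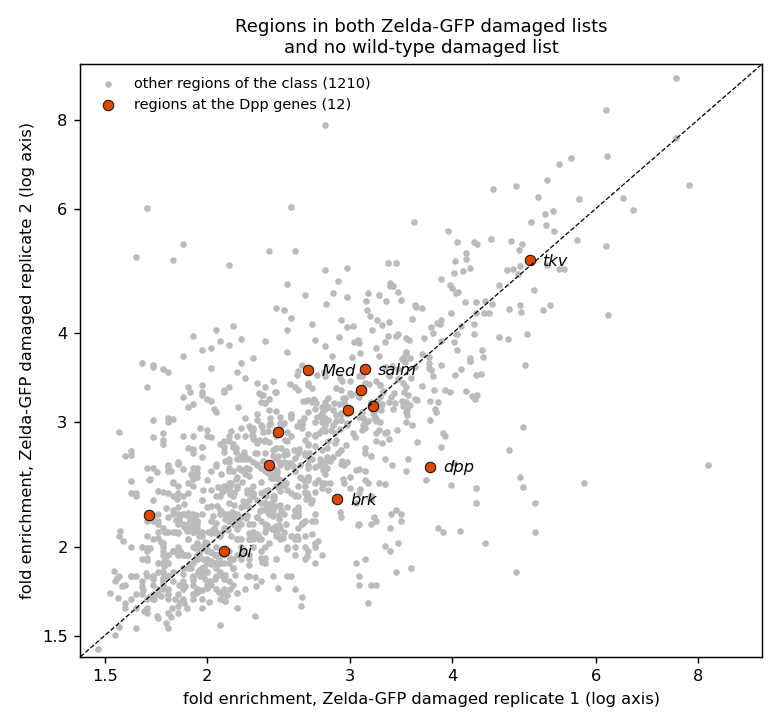
Fold enrichment in Zelda-GFP damaged replicate 1 (x axis, log) is plotted against replicate 2 (y axis, log) for the 12 regions at the Dpp genes (orange) and the other regions of the class (grey), with the line of equality dashed. The tkv region at 4.98 and 5.07 lies near the line, dpp lies below it and Med above it.

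A missing call sets only an upper limit on signal. Where expected coverage was at background, the WT damaged lists held peaks down to folds of 1.44 and 1.49, the WT undamaged lists down to 1.61 and 1.52, and the undamaged Zelda-GFP lists down to 1.44 and 1.57. Each value is the lowest among many such peaks of its list, not a detection limit at a given place. The 12 regions had folds above these values in both damaged Zelda-GFP lists. The margin was small at the weakest, a Dad region with 1.70 in replicate 1. The expected coverage that the caller would have used at these places in the other lists is unknown.

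The regions differed in position. Of the 12, 8 overlapped the span of the member gene and 4 lay in a flank. Within 500 bp of an end of a protein-coding gene lay 4 of the 12 (33.3%), against 43.8% of the class. Of the 27 regions at the Dpp genes, 14 (51.9%) lay that close to a gene end, against 37.3% of all regions. Of the 11 regions with a WT call, 9 did (81.8%), against 35.7% of all regions with a WT call. WT damaged replicate 2 supplied 9 of these 11, and 49.4% of all regions it called lay near a gene end. All calls in damaged controls at these genes came from that library. Leaving it out brought the class to 14 of 23 regions at 9 genes, by adding sax and put. Over all regions the class then held 18.7%, against 13.4% with all 8 libraries. The part played by the libraries' unlike shares near gene ends was not tested.

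The rule of 2 kb had regions close to it on each side. Just inside lay a WT damaged replicate 2 peak 1978 bp above Med, with a fold of 1.83, and just outside a WT undamaged replicate 2 peak 2388 bp above sax, with a fold of 1.62. Farther out, a region at X 7300033 to 7302706, 5232 bp below brk, had folds of 4.28 and 3.50 in damaged Zelda-GFP discs alone. A region at 2L 2466782 to 2467281, 6958 bp above dpp, had 1.85 and 2.28, likewise without another call. So did 3R 17080262 to 17080951, 9853 bp above Dad, with 2.28 and 2.39. A region 9797 bp below Dad was called in 5 lists. Its folds were 4.05 and 1.77 in damaged Zelda-GFP discs, 1.97 in Zelda-GFP undamaged replicate 1, and 2.01 and 1.69 in WT damaged and undamaged replicate 2. Between 2 and 10 kb, regions called in WT lists alone lay at sax, Med, Mad and tkv.

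Another 22 genes of the pathway were listed for their roles, also with earlier results of these data known. Described in the same way, they had 59 regions. Of these, 26 (44.1%) were called in both damaged Zelda-GFP lists without a damaged WT call, against 13.4% of all regions. Of the 26, 10 lay at sbb and 4 at shn, long genes of 79.1 and 58.3 kb. In all, the 26 lay at 14 of the 22 genes, against 9.79% of protein-coding genes. By length, they lay at 12 of the 13 genes of at least 10 kb, against 24.9% of such genes, and at 2 of the 9 shorter ones, against 7.29%. In the undamaged class was 1 region (1.69%, against 3.02% of all regions), at tok, a protease gene related to tld. It was also called in both damaged Zelda-GFP lists, with folds of 1.97 and 2.13, and in WT damaged replicate 1, with 1.63. The ligands gbb and scw and the type II receptor gene wit had 0 regions of the damaged class. Among intracellular components they lay at 5 of 6 genes, 4 of which span at least 10 kb (24.9% of all genes that long). At sbb, a nuclear corepressor gene of 79.1 kb, 10 of 13 regions were in the class, the highest with folds of 5.72 and 6.19 at 2R 18335095 to 18335548. At shn, the cofactor of Mad and Med in brk repression, all 4 regions were, and 2R 11202513 to 11203898 had folds of 5.21 and 5.69. The genes lack (Smurf, a ubiquitin ligase that targets Mad), Sara and CtBP had 1 each, and gro had 0. The Sara region lay 752 bp below Sara and overlapped Sdc. The CtBP region lay 134 bp below CtBP and overlapped CG8031 and CG11656.

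Extracellular regulators carried such regions at 7 of 11 genes, of which 6 were among the 7 that span at least 10 kb (24.9% of all genes that long). The glypican gene dally had 2, and the one at 3L 8824786 to 8825942, below the gene, had folds of 4.79 and 6.45. The related glypican gene dlp had 1, with folds of 3.86 and 4.13. The others were magu (pentagone, a feedback regulator of Dpp range) with folds of 3.22 and 3.12, cv-2, sog, tld and tok, the last 2 sharing a region between them with folds of 2.92 and 4.17. No such region lay at cv, tsg, ltl or vkg. Both further target genes had 1, with folds of 2.79 and 2.46 at salr, the paralogue of salm, and of 2.92 and 3.33 at vg, a wing selector gene.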

How the data were processed

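The authors deposited 1 narrowPeak list per library. The genome build is dm6 and MACS2, Bowtie2 and Picard were used, per the submitters' processing notes, and peak names record that duplicates were marked; the caller's settings and any control are not given in the sources used here. The deposited fold enrichment is a linear ratio, the deposited significance columns are −log10 p-values and −log10 q-values, and the deposited score is a rounded form of the latter. Distances to summits were read as deposited.

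Lists were merged on 6 arms with Python 3.11.15. The deposited fold and p-value were solved together for pileup and expected coverage (Poisson, pseudocount 1), which gave whole pileups (within 0.05) for 100.0% of the peaks that could be computed, and each list's minimum of expected coverage served as its background. The exact permutation test was checked on simulated calls. No read totals were used.

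The 10 genes, the 22 further genes and the tests were chosen with earlier results of these data known; the split of genes at 10 kb, positions near gene ends and fold limits were chosen after values were seen. All 10 genes are named, with coordinates for regions called in both libraries of a group or in at least 3 libraries, and others by gene, except where singled out after values were seen. No genome was used here, so planned motif searches were not run. The gene table gives neither strand nor exons, so ends are called lower or upper by coordinate.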

Additional observations from a re-analysis of the deposited data

How the results depend on the processing

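Alternatives were a fold of at least 3, a −log10 q-value of at least 2, lists of equal length, 100 bp around summits, an overlap of 100 bp, flanks of 0 or 10 kb, and each library left out. With a fold of at least 3, 8 regions remained at the genes, 4 of them in the damaged Zelda-GFP class with or without removal of all other calls, at 3 genes (tkv, salm and Dad). At that cutoff the class held 25.0% of all regions (23.3% without any other call), so the gap to the background was narrower in relative terms than in the full lists. Without flanks there were 15 regions, 8 of them in the class (against 13.4% of all regions), at 4 genes (dpp, tkv, bi and Dad). With 10 kb there were 41 regions, 15 of them in the class (against 13.4% of all regions), at 7 genes. Among the 41, 3 were specific to WT damaged lists (against 3.04% of all regions) and 2 to WT undamaged lists (against 1.96%). With 100 bp around summits 11 of 29 regions were in the class, against 7.01% of all regions. They lay at 7 genes, sharing 6 with the main list (sax in place of Med, where the summits lay outside the flank). With lists of equal length 10 of 18 regions were, against 13.2% of all regions, at 6 genes (without bi). Leaving out 1 library at a time, regions ran from 23 to 27. The damaged class ran from 12 to 15 at 7 to 9 genes, against 13.5% to 24.8% of all regions. Its subset without any other call also ran from 12 to 15, against 10.7% to 20.0%. The counts of 15 came without Zelda-GFP damaged replicate 1, where the shares over all regions were highest. The undamaged class ran from 0 to 1 (1 without Zelda-GFP undamaged replicate 2, against 13.5% of all regions). WT damaged-specific regions ran from 0 to 5 (5 without WT damaged replicate 1, against 21.1% of all regions). WT undamaged-specific ones ran from 0 to 3 (3 without WT undamaged replicate 1, against 19.2%). Such counts rise by construction, since 1 library then stands for its group. With the replicate number as a block, the per-region tests of genotype and damage left 0 regions at the Dpp genes, as without it, and their smallest possible exact p was 0.0556. The numbers mark no stated pairing, and deviations of same-numbered libraries correlated from -0.0667 to 0.0739 between groups. Shares of protein-coding genes were given for the main settings only, so gene counts under the alternatives have no background of their own. Lists without read totals give no counting intervals on single peaks.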

Other observations

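Below tkv, outside the 2 kb flank, 2 regions were called in all 4 WT lists and in no Zelda-GFP list. They lay at 2L 5212506 to 5213638, with WT folds of 1.59 to 1.75, and at 2L 5208105 to 5209307, with WT folds of 1.58 to 1.80. In the whole series 46 regions (0.506%) had this pattern. Another region between them, 2L 5210280 to 5211038, was called in 3 WT lists and no Zelda-GFP list. On the other side of tkv, 6330 bp above it, 2L 5277715 to 5279020 had a fold of 4.54 in Zelda-GFP damaged replicate 1 and of 2.21 in WT damaged replicate 2, with no call in Zelda-GFP damaged replicate 2. These regions were chosen after their values were seen.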
